A study of Mus musculus with 4 samples.

Results

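Raet1e and H60b share a locus on mouse chromosome 10 and encode ligands of the immune receptor NKG2D. They were chosen by peak width: the widest H3K27me3 peak called with 500 cells covers the annotated starts of both genes, so its width, its rank and the 500-EMP cover around that start are descriptions of the choice and not results. The members were the 2 genes of 21951 protein-coding genes, with 1 annotated row for each gene in each library, and all peaks within 100 kb of either gene, which were 23 of 10223 peaks with 500 cells and 31 of 15282 peaks with 15000 cells. H3K27me3 was profiled by CUT&RUN, in which an antibody directs a nuclease to its target and the released DNA is sequenced, in erythro-myeloid progenitors (EMPs) sorted from the mouse yolk sac at E10.5 of embryonic development. The 4 groups held 1 library each: H3K27me3 and IgG control from 500 EMPs, and H3K27me3 and IgG control from 15000 EMPs.

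All 4 groups were of strain C57BL/6 and carried the same genotype label, Ezh2fl/fl with Tie2-Cre+/+ and the words wild type. The label does not say whether +/+ means that the Cre transgene was present, and the study treats these cells as wild type. Where present, Tie2-Cre acts in endothelial cells and their descendants, which include EMPs. Libraries from 500 EMPs had 17 PCR cycles and paired-end reads of 76 bp, and those from 15000 EMPs had 16 cycles and paired-end reads of 59 bp from another instrument. The 15000-EMP peaks were also called at a more lenient p-value threshold, and the IgG libraries entered as the background of the peak caller. Per the study's reporting summary, the 500-EMP library was sequenced less deeply and far fewer of its reads aligned. Cell number, depth, alignment rate, read length, amplification and threshold cannot be told apart. With no replicate library there is no test and no error between samples, and the files give peak positions without heights or counts, so the reads behind a peak are unknown. A gene without a peak is one where none was called, not one shown to lack the mark.

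H3K27me3 is the histone mark that the Polycomb enzyme Ezh2 places on nucleosomes, and wide domains of it are known from silent developmental genes such as the Hox clusters. NKG2D is an activating receptor of natural killer cells and some T cells. Its mouse ligands, the RAE-1 proteins (Raet1 genes), the H60 proteins and MULT1 (Ulbp1), are distant relatives of MHC class I molecules that are displayed by stressed, infected or transformed cells. These genes form families of close copies, so a sequenced read can match more than 1 of them.

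The sequences around the starts show an inverted and a direct copy, and the locus contains further copies besides these. Each line below runs 5′ to 3′ in the direction of the gene, with CG dinucleotides in capitals, since CpG-rich DNA is the usual place of H3K27me3 at gene starts. The 3 gene windows are those of the RefSeq promoter table on GRCm38.p6 (mm10), 250 bases before to 50 after a start, and the inverted copy is the stretch of the same genome that aligned to the upstream Raet1e window, read from the minus strand.

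Raet1e upstream start, chr10:22158319-22158618, plus strand: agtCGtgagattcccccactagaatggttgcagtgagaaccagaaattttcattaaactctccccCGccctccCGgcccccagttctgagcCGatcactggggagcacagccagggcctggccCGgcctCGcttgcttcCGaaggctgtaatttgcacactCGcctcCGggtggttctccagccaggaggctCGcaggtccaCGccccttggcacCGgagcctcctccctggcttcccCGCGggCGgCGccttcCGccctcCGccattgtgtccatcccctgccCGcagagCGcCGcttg

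inverted copy, chr10:22151519-22151816, minus strand: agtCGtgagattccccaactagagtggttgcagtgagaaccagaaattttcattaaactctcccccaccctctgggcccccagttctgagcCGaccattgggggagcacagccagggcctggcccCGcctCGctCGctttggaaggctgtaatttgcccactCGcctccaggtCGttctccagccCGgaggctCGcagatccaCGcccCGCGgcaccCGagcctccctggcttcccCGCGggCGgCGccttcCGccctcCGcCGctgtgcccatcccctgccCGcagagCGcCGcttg

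Raet1e downstream start, chr10:22173247-22173546, plus strand: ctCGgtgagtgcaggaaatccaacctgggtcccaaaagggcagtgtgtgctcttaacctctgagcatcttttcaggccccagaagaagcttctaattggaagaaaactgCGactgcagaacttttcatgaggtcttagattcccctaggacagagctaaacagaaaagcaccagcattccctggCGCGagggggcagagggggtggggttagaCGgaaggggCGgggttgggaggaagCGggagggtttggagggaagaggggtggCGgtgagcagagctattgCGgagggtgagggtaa

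Raet1d start, chr10:22361644-22361943, plus strand: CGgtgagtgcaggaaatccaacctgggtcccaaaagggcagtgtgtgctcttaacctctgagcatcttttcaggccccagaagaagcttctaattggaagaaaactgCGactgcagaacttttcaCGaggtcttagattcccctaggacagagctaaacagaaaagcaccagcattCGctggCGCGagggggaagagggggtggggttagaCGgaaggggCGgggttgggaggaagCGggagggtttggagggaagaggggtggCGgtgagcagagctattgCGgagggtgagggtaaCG

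The first pair was 91.4% identical and the upstream Raet1e window held 21 CpGs against 23 in the inverted copy. The median over 32851 promoter windows was 7 CpGs, and 24.8% of them held at least 21. In the 15000-EMP list all 300 and all 298 bases of this pair lay in a peak. In the 500-EMP list all 300 bases of the Raet1e window lay in a peak and 0 of the inverted copy. The cover of the Raet1e window there follows from the peak the genes were chosen for. The second pair differed by 3 substitutions once aligned, an identity of 99.0%. As printed, the downstream Raet1e window held 9 CpGs and the Raet1d window 12. The printed windows of this second pair start at different aligned bases, and the last CpG of the Raet1d window lies beyond the aligned stretch. Of this pair, 75 bases of the downstream Raet1e window lay in a 500-EMP peak and 0 in a 15000-EMP peak, and 0 bases of the Raet1d window lay in a peak of either list.

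Both strands were searched for 5 motifs. GGGCGG, the GC box, had 3 matches in the upstream Raet1e window, 2 in the inverted copy and 1 in each of the other windows, and 35.7% of all promoter windows held it. CCAAT had 0 matches in the upstream Raet1e window and 1 in each of the other 3, against 37.4% of all windows. TATAAA, TTTCGCGC and TTTGGCGC had 0 matches in all 4 windows, and 13.6%, 0.323% and 0.514% of all windows held them.

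The authors' annotation placed a single peak over the starts of both genes in each library. With 500 EMPs this peak was chr10:22151894-22162122, 10229 bp, and with 15000 EMPs it was chr10:22149010-22162979, 13970 bp. The table gave both genes a distance of 0 bp and the category of a peak that overlaps the gene start. In GENCODE vM21 the Raet1e gene (ENSMUSG00000053219) spans chr10:22158569-22374139 and H60b (ENSMUSG00000075297) spans chr10:22158586-22288849, both on the plus strand, so their first annotated starts lie 17 bp apart and 1 peak necessarily counts for both. The upstream Raet1e start stood 6675 bp from the left edge of the 500-EMP peak and 3553 bp from its right edge.

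Peaks of either list covered all 6001 bp within 3 kb of this shared start, which for 500 EMPs follows from the edges of the peak the genes were chosen for. Of the 21951 genes, 4 reached that value with 500 EMPs, Raet1e and H60b among them, and 139 with 15000 EMPs. Among genes with any covered base in the window, the median was 789 bp with 500 EMPs and 2743 bp with 15000 EMPs. A peak lay within 3 kb of the start for 9.92% of genes with 500 EMPs and 17% with 15000 EMPs. As a description, the covered lengths most like those of Raet1e and H60b, by the summed difference over both libraries, belonged to Hoxa10 (0 bp), Hand1 (280 bp), Gm28308 and Hoxa3 (602 bp each) and Six3 (728 bp). Hoxa10 and Hoxa3 are Hox factors that pattern the body axis, Hand1 is a factor of heart and placenta, and Six3 one of forebrain and eye.

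The count at the members rests on which transcript start is taken. Both genes have other annotated starts far downstream, and RefSeq places H60b at chr10:22273474-22288849 only. Raet1e-201 starts at chr10:22173521, 14952 bp downstream of Raet1e-204. With 500 EMPs a peak of 151 bp lay 200 bp from the Raet1e-201 start and covered, with another peak, 166 bp within 3 kb. With 15000 EMPs the nearest peak was 10542 bp away and 0 bp were covered. Raet1e-203, at chr10:22165638, had 0 bp covered with 500 EMPs and 342 bp with 15000 EMPs.

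H60b-202 starts at chr10:22273346, 114760 bp downstream of H60b-201. With 500 EMPs its nearest peak, of 784 bp, lay 452 bp from the start, and 1276 bp within 3 kb were covered by peaks of 784, 301 and 191 bp. With 15000 EMPs a peak of 715 bp overlapped the H60b-202 start, a second of 1407 bp followed, and 2122 bp were covered. The upstream start of the 2 genes was thus fully covered in both libraries, the H60b-202 start partly in both, and the Raet1e-201 start slightly in 1 library. For the upstream start with 500 EMPs this follows from the peak the genes were chosen for.

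**Figure D1:**
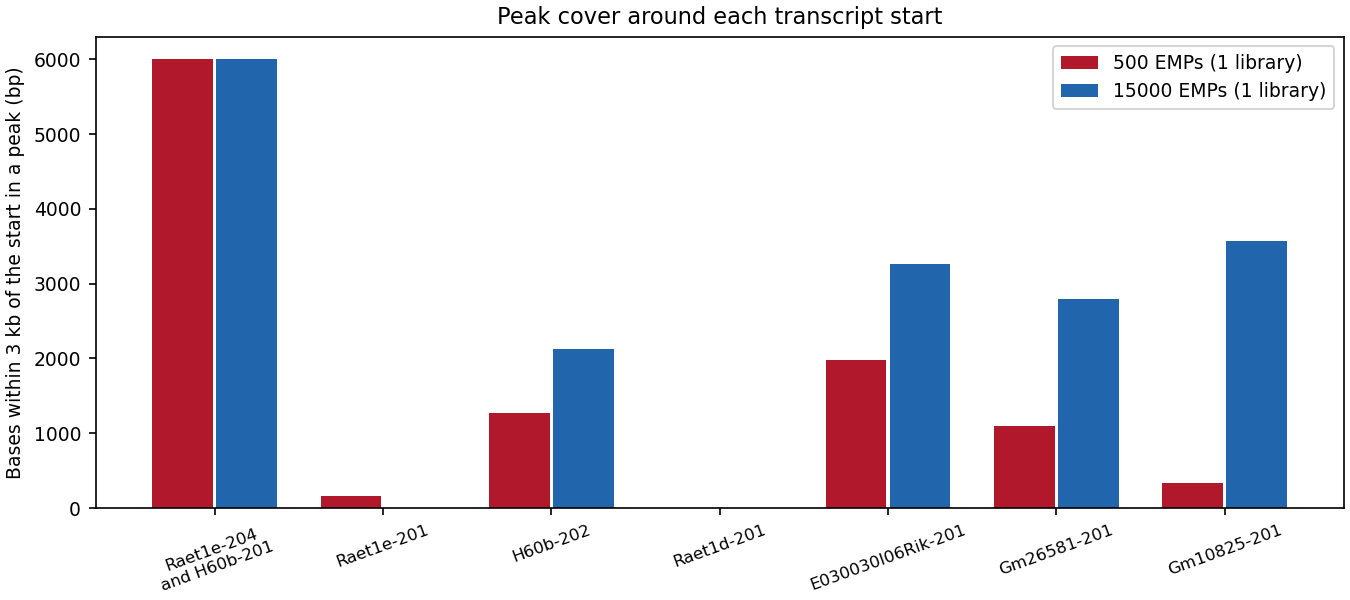
Bases in an H3K27me3 peak (bp, vertical axis) within 3 kb of each transcript start (horizontal axis), with 1 bar per library and no replicates. The shared start of Raet1e-204 and H60b-201 has 6001 bp in both libraries, Raet1e-201 has 166 and 0 bp, H60b-202 has 1276 and 2122 bp, and Raet1d-201 has 0 bp in both.

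The rest of the locus held narrower peaks. The window reached from chr10:22058569 to chr10:22474139, 415571 bp with 0 unknown bases in the assembly. Peaks covered 17547 bp (4.22%) with 500 EMPs and 38116 bp (9.17%) with 15000 EMPs, a ratio of 2.17. This ratio includes the peak chosen for its 500-EMP width. Over the whole lists peaks covered 5946494 bp with 500 EMPs and 23956865 bp with 15000 EMPs. The wide domain, taken as the 15000-EMP peak and the 500-EMP peaks in it, accounted for 67.4% of the covered bases with 500 EMPs and 36.7% with 15000 EMPs. Outside it, 20 peaks with 500 EMPs covered 5714 bp and 30 peaks with 15000 EMPs covered 24146 bp. Those with 500 EMPs had a median width of 180 bp and a greatest width of 784 bp. Those with 15000 EMPs had a median of 531.5 bp and a greatest width of 3591 bp. The medians of the whole lists were 363 and 770 bp.

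Of the 23 peaks with 500 EMPs, 17 (73.9%) shared 1 bp or more with a peak of the 15000-EMP list, against 91.2% of all 500-EMP peaks. In the reverse direction 12 of 31 (38.7%) overlapped a 500-EMP peak, against 32.2% of the whole list. By length, 15498 bp were covered in both libraries, 88.3% of the 500-EMP bases and 40.7% of the 15000-EMP bases. Of these, 11833 bp lay in the wide domain, which was chosen for its 500-EMP width. Outside it 3665 bp were shared, 64.1% of the 500-EMP bases and 15.2% of the 15000-EMP bases there.

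**Figure D2:**
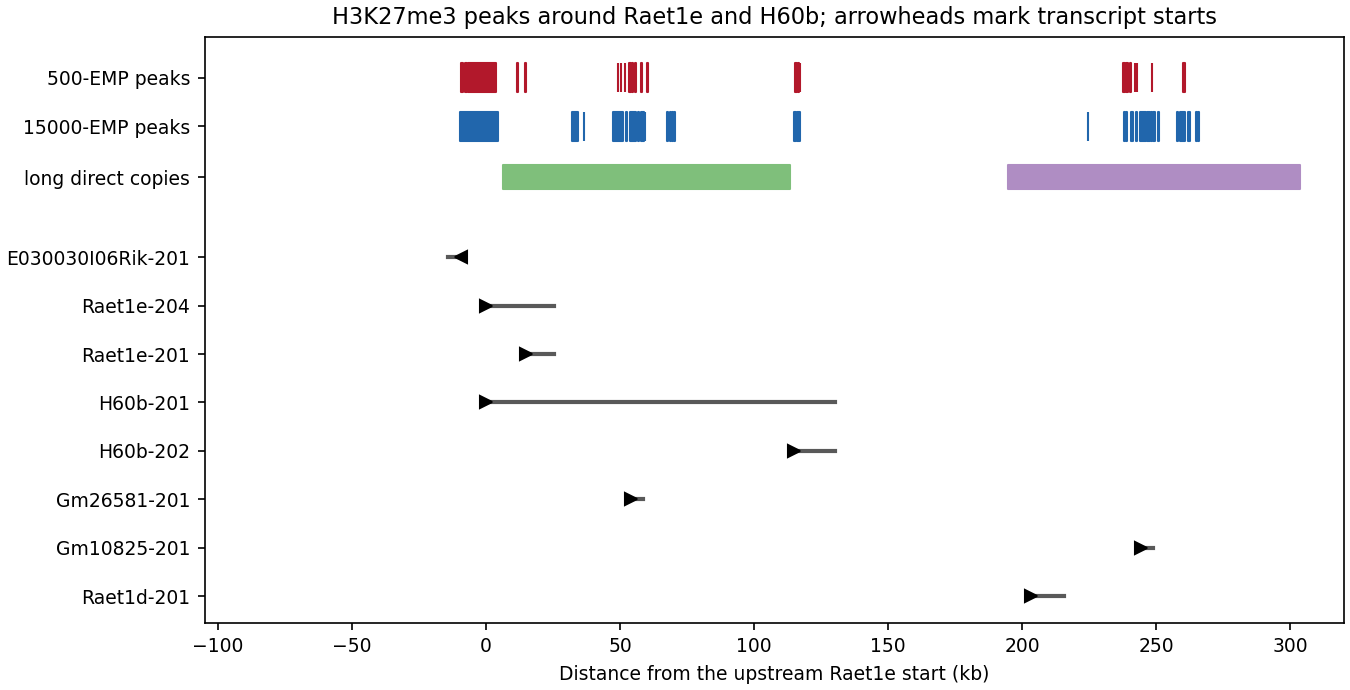
Peaks of the 500-EMP list (red) and the 15000-EMP list (blue) against distance from the upstream Raet1e start (kb), with the long direct copies and chosen transcripts below, each arrowhead a transcript start. The domain of 13970 bp stands at 0, narrow peaks gather around Gm26581 and Gm10825, and no peak lies at the Raet1d start.

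The domain was called as 1 peak with 15000 EMPs and as 3 pieces with 500 EMPs. The pieces were 942, 662 and 10229 bp wide, parted by gaps of 706 and 553 bp, and they covered 11833 bp, 84.7% of the 15000-EMP peak. The 15000-EMP peak reached 2884 bp further left and 857 bp further right than the widest 500-EMP peak. It held the start of E030030I06Rik at chr10:22149270, on the minus strand and 9299 bp from the Raet1e start, which lay in a peak in both libraries. It also held the processed pseudogene Gm4895, whose start is at chr10:22154416.

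The domain contained an inverted repeat. A stretch of 2504 bp over the Raet1e start, chr10:22157717-22160220, aligned in the opposite direction to a stretch of 2456 bp at chr10:22149959-22152414, with 92.5% identity over 2506 aligned bases and 5302 bp between the arms. An overlapping stretch of 2117 bp, chr10:22158496-22160612, aligned directly to 2097 bp at the downstream H60b start, chr10:22273307-22275403, with 92.4% identity over 2127 aligned bases. The base aligned to the Raet1e start lay 34 bp from the H60b-202 start, so the upstream start of Raet1e and the downstream start of H60b stand in aligned copies.

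The 3 copies differed in cover, with the copy at the Raet1e start taken as both stretches together (chr10:22157717-22160612, 2896 bp). With 500 EMPs the copy at the Raet1e start was covered in full (100%), the inverted copy to 48.7% and the H60b-202 copy to 51.7%. The full cover at the Raet1e start follows from the peak the genes were chosen for, so this contrast is a description only. With 15000 EMPs the values were 100%, 100% and 79.8%. The ratio of observed to expected CpG, which is near 1 where CpGs have not been lost, was 0.562 at the Raet1e start, 0.654 in the inverted copy and 0.583 at H60b-202. Both gaps with 500 EMPs lay in the inverted copy. In the gap of 706 bp, chr10:22149973-22150678, 90.4% of 59-base words and 93.0% of 76-base words occurred once in the genome, and its CpG ratio was 0.603. The gap of 553 bp, chr10:22151341-22151893, held the whole inverted sequence printed above. In this gap 98.0% of 59-base words and 100% of 76-base words occurred once in the genome, and its CpG ratio was 0.757.

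**Figure D3:**
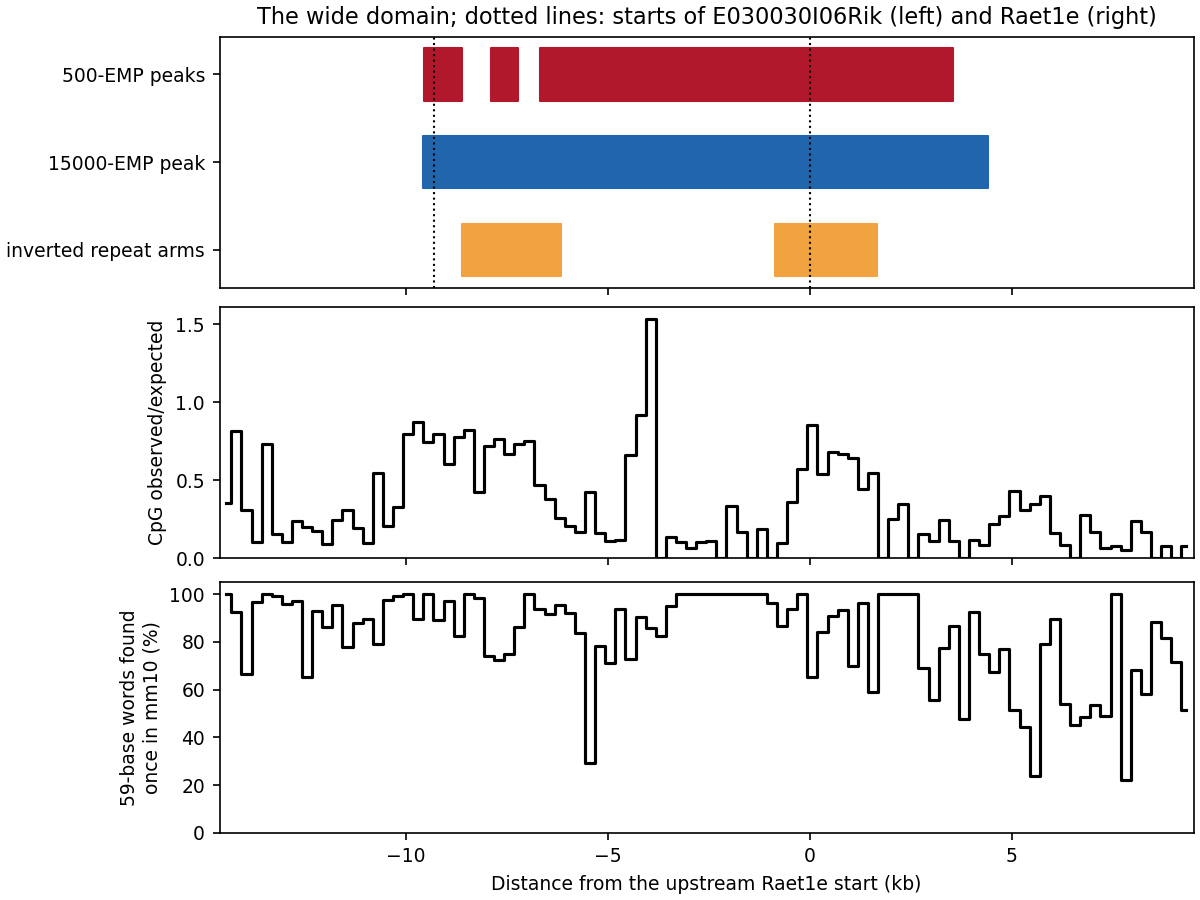
Top, peaks of both lists and the arms of the inverted repeat, middle, CpG observed over expected, and bottom, the share of 59-base words found once in mm10, in bins of 250 bp against distance from the upstream Raet1e start (kb). CpG ratios vary within both arms and reach similar heights outside them, and the highest bin in the domain, 1.53, lies 3.93 kb upstream of the Raet1e start beside the start of Gm4895.

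A single read cannot be placed by its own sequence where that sequence recurs in the genome. The reads were paired, so a read in repeated sequence may still be placed by its mate, and the shares below describe single reads only. Over the 13970 bp domain, 86.8% of all 59-base words (12082 of 13912) and 92.5% of all 76-base words occurred once in the genome. The 59-base words had 692 further places in a span reaching slightly beyond the window on both sides, 222 elsewhere on chromosome 10 and 965 on other sequences. Over the whole window of 415571 bp the shares were 55.4% and 62.0%. The aligner's listed command shows no filter on mapping quality, and how repeated reads entered the peaks was not tested.

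The narrow peaks lay mostly in a long duplication. The stretch chr10:22164982-22272109 (107128 bp), which holds Raet1e-201, Gm26581 and the pseudogene Gm1972, aligned in the same direction to chr10:22353203-22462163 (108961 bp), which holds Raet1d, Gm10825 and the pseudogene Gm16531. Over 104327 aligned bases the identity was 98.9%. The Raet1e-201 start aligned to chr10:22361916, 22 bp from the Raet1d-201 start, and the start of the lincRNA Gm26581 aligned to that of the lincRNA Gm10825. Only 33.1% of 59-base words in the first copy and 32.6% in the second occurred once in the genome.

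With 500 EMPs 10 peaks lay in the first copy and 7 in the second, covering 2278 and 2157 aligned bp. Of these, 373 bp were covered at matching positions of both copies, 16.4% of the first and 17.3% of the second, and 3 of 10 and 3 of 7 peaks had a counterpart. With 15000 EMPs 13 and 15 peaks covered 11320 and 10685 aligned bp. Here 6003 bp matched, 53.0% of the first copy and 56.2% of the second, and 12 of 13 and 11 of 15 peaks had a counterpart. Matching cover was therefore the larger share with 15000 EMPs, where more of each copy was covered as well.

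Of the 17 peaks with 500 EMPs in the copies, 10 held no 59-base word that occurs once, and of the 28 peaks with 15000 EMPs, 12 held none. Over the whole lists 1.18% of peaks with 500 EMPs and 1.02% with 15000 EMPs held none, while every word occurred once in 92.8% and 79.7%. All 6 peaks of the 500-EMP list in the window that met no 15000-EMP peak lay in the copies, 4 of them without a unique 59-base word, near the 10 of 17 among all 500-EMP peaks there, and 1 of them fell on a 15000-EMP peak once carried to the other copy. The 19 peaks of the 15000-EMP list that met no 500-EMP peak also lay in the copies, 9 of them without a unique word, and 3 fell on a 500-EMP peak once carried over. The 151 bp peak beside the Raet1e-201 start was one of the 4.

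**Figure D4:**
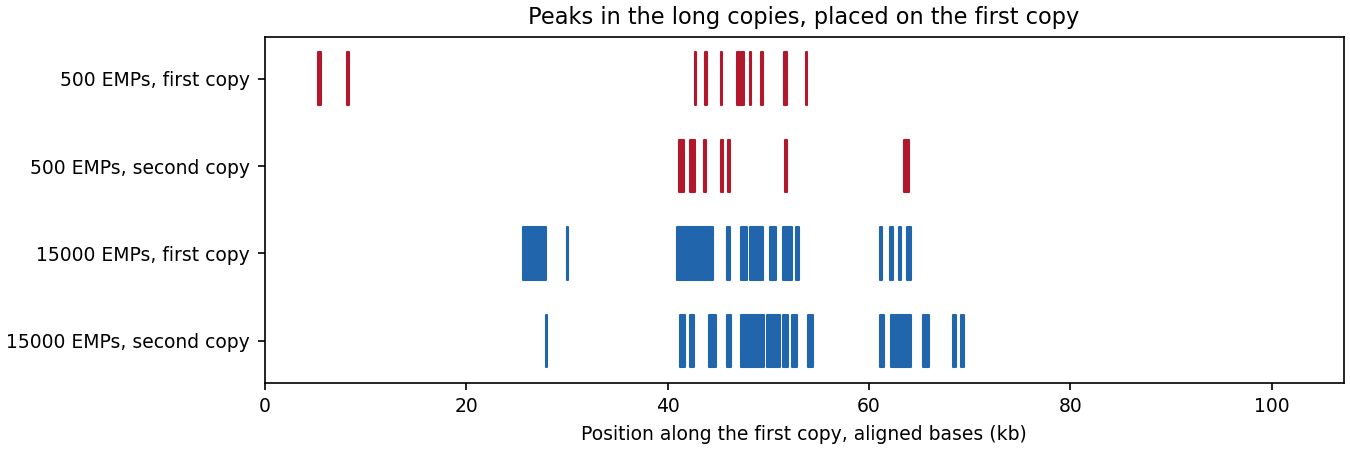
Peaks of each list in the first and second long copy, all drawn at the aligned position along the first copy (kb). With 15000 EMPs 53.0% of the cover of the first copy recurs at the matching place in the second, and with 500 EMPs 16.4%.

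At the 2 lincRNAs of the copies the peaks differed by library. Within 3 kb of the Gm26581 start 1103 bp were covered with 500 EMPs and 2792 bp with 15000 EMPs, and at Gm10825 the values were 331 and 3570 bp. The widest peak of the copies, 3591 bp at chr10:22205936-22209526 in the 15000-EMP list, had a counterpart over 1293 bp, and the peak of 2338 bp at chr10:22190593-22192930 over 54 bp only. In this last peak 49.3% of the 59-base words occurred once.

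By GENCODE starts no other listed NKG2D gene had a peak within 3 kb. Of 9 ligand genes listed, 5 are named in GENCODE vM21, and 2 of these 5, Raet1e and H60b, had a peak within 3 kb in each library, beside 9.92% and 17% of all genes. Both were chosen for that peak and share it, so the count supports nothing about the family. Raet1d had its nearest peak 35772 bp away with 500 EMPs and 22487 bp with 15000 EMPs. H60c, in another part of chromosome 10, had its nearest peaks at 10433 and 10941 bp, and Ulbp1 at 69293 and 15081 bp. Klrk1, which encodes NKG2D, and the signalling adaptors Hcst and Tyrobp had none within 3 kb (0 of 3). The authors' tables call the gene ENSMUSG00000078452 Raet1c, where GENCODE vM21 names it Raet1d, and gave it 10 rows with 500 EMPs and 13 with 15000 EMPs. The nearest of these rows were the 151 bp peak beside Raet1e-201, at a distance of 596 bp in the table with 500 EMPs, and a peak at 16674 bp with 15000 EMPs. By the authors' own distances, 3 ligand genes with 500 EMPs and 2 with 15000 EMPs thus had a peak within 3 kb. The additional gene rests on this 151 bp peak, which lies far from the GENCODE starts of Raet1d. The peak holds no 59-base word that occurs once in the genome.

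The genes of the EMP gate were looked up as well. Kit, Itga2b (CD41), Fcgr2b and Fcgr3 (CD16/32), and Ly6a (SCA1), which the gate excludes, had no peak within 3 kb in either library (0 of 5). Over all genes 9.92% with 500 EMPs and 17% with 15000 EMPs had one, so 0 of 5 lies near the background, and the gene that the gate excludes gave the same value as the 4 it requires. Peak positions do not show expression, and the identity of the cells was not tested.

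Of 13 protein-coding genes with a start within 1 Mb, 4 had covered bases within 3 kb of the start with 500 EMPs and 5 with 15000 EMPs, beside 9.92% and 17% of all genes. Without Raet1e and H60b these were 2 and 3 of 11, and without E030030I06Rik as well, whose start lies in the same domain, 1 and 2 of 10. The 2 with cover in both libraries were E030030I06Rik and Tcf21, a transcription factor of mesenchyme. The values were 1981 and 3261 bp for E030030I06Rik and 2424 and 5679 bp for Tcf21. Sgk1, a kinase of salt and stress responses, had 0 bp with 500 EMPs and 2908 bp with 15000 EMPs. Myb, a transcription factor of blood progenitors, had 0 bp in both. With 500 EMPs there was no peak for 2694631 bp before the window and 338375 bp after it, and with 15000 EMPs for 174452 and 6276 bp.

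The locus was last set beside the 29 other 500-EMP peaks wider than 5 kb. The narrowest peak inside this limit was 5023 bp and the widest outside 4972 bp. The Raet1e/H60b peak was 78 bp wider than the next, 10151 bp near Hoxc4. The nearest protein-coding start belonged to a Hox gene for 10 of the 29 and to a transcriptional regulator for 26 of the 29, a list made after the names were seen. The share of regulators among all genes or all 500-EMP peaks was not counted, so these counts are a description. The next after Hoxc4 were Hoxa10, Tbx5, a heart and forelimb factor, Six3 and Tbx4, a hindlimb factor. Raet1e and H60b, which encode surface ligands, were not of that kind. Of the 29, 7 covered a protein-coding start.

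In the 15000-EMP list, which the choice by width did not use, the domain ranked 66 of 15282 by width, and 181 peaks were wider than 10 kb. The widest 15000-EMP peak over each of the 29 had a median of 12784 bp (4617 to 29727 bp), with 18 narrower and 11 wider than the 13970 bp here. The 15000-EMP peak was 1.18 times the bases covered with 500 EMPs in it, against a median of 1.34 (1.02 to 1.79), with 3 of 29 lower. This ratio has the 500-EMP cover as its denominator, for which the peak was chosen, and is a description only.

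The sequence of the widest 500-EMP peak stood outside or near the edge of the range of the 29 others in repeated DNA and in GC content. In it 87.3% of 59-base words occurred once, below all 29 (96.4 to 100%, median 99.9%), and 92.7% of 76-base words did, also below all 29. Repeat-masked bases made up 27.9%, above 28 of 29 (median 12.9%), the exception being the peak near Vax2 with 38.8%. The GC content was 43.8%, below 27 of 29 (median 48.7%), while the CpG ratio was 0.426, above 23 of 29 (median 0.354). The medians over the 10216 500-EMP peaks on assembled chromosomes were 0.280 for the CpG ratio and 9.45% for masked bases, and 3.14% of these peaks had a lower share of unique words. No test was made, since 1 peak was compared, and the part of repeated sequence in the width of the peak was not tested.

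**Figure D5:**
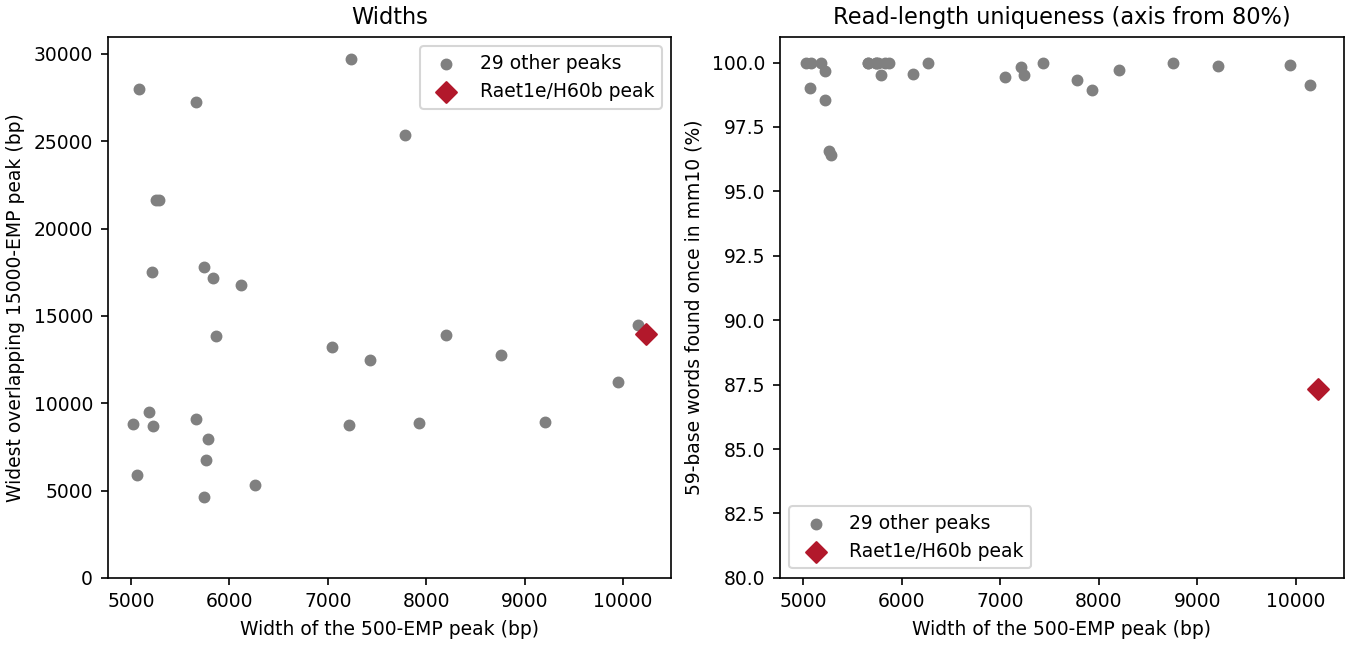
The 30 peaks of the 500-EMP list wider than 5 kb, by their width (bp) against, left, the width of the widest overlapping 15000-EMP peak (bp) and, right, the share of 59-base words found once in mm10 (%, axis from 80). The Raet1e/H60b peak (red) has 13970 bp on the left, within the range of the others, and 87.3% on the right, below all 29.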

How the data were processed

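Per the labels, reads were aligned to mm10 with Bowtie2 version 2.2.1 and peaks were called with MACS2 version 2.1.2. The authors called broad peaks for each H3K27me3 library against its IgG library and annotated them with ChIPpeakAnno. The deposited files give peak positions and gene names, with distances in bp, and no score or count. In the reporting summary the peak-calling commands name the libraries of the 2 cell numbers the other way round, and the labels were followed here.

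Peak starts were converted to 1-based positions and the ends of the peak lists were used. Genes came from GENCODE vM21. Copies of at least 1500 bp were found with BLAST+ version 2.17.0 and read-length words of 59 and 76 bases were counted on both strands of the assembled chromosomes and unplaced sequences of GRCm38.p6, in Python version 3.11.15. The counting was checked on simulated data. Named genes were the members, the listed ligands, receptor and gate genes, neighbours within 1 Mb and the nearest genes of the widest peaks. The members and lists were chosen with earlier results of these data known. Groups came from the labels. Alternatives are given in the closing section.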

Additional observations from a re-analysis of the deposited data

How the results depend on the processing

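Of 50 alternatives to 15 values, 31 left a count, length or ratio within 1.5 times its value, or a share within its 95% binomial interval, and 19 did not. That interval treats overlapping words or neighbouring bases as independent, so it measures no spread and only sets a limit for this count. Joining peaks within 3 kb left 7 peaks with 500 EMPs and 8 with 15000 EMPs, and covered 35010 and 57838 bp. RefSeq gene positions, an alternative chosen after seeing the data, left 17 of the 31 peaks with 15000 EMPs. Within 1 kb of the start, 2001 bp were covered for both genes in both libraries, and within 10 kb 11833 bp with 500 EMPs and 13970 bp with 15000 EMPs. These changes follow from the joining and from the size of the windows. The starts of single transcripts, also chosen after seeing the data, gave 166 and 0 bp for Raet1e-201 and 1276 and 2122 bp for H60b-202. Words of 76 bases raised the unique share to 92.7%, and over the 15000-EMP peak 26.3% of bases were masked. No paired analysis was possible because each group had 1 library and no result came from a test. The distances of the authors' tables gave 3 ligand genes with a peak within 3 kb with 500 EMPs in place of 2. The additional gene rests on the 151 bp peak beside the Raet1e-201 start. A stricter peak threshold could not be tried, since the files hold no scores, and the difference in depth between the libraries could not be corrected for.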
